A study of Mus musculus with 4 samples.

Results

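Circadian clock genes were examined in RNA sequencing libraries of activated group 2 innate lymphoid cells (ILC2s) sorted from mouse lung. The 10 genes, taken by symbol from the 22558 genes of the deposited count table, were the activators Arntl and Clock, the repressors Per1, Per2, Per3, Cry1 and Cry2, the nuclear receptors Nr1d1 and Nr1d2, and the output gene Dbp. There were 2 WT libraries, from wildtype C57BL/6 mice, and 2 libraries labelled ICAM-1 KO (the KO-labelled libraries). The latter came from mice that carry a germline mutation of Icam1 in every cell and not in ILC2s alone. Their strain name in the paper joins B6, for C57BL/6, with another strain. All mice were 6 weeks old, were challenged 3 times through the nose with 0.5 µg of rmIL-33, recombinant mouse interleukin 33, and had their lungs taken on day 4. Each library was a pool of 4 mice, so the spread between single animals was not measured. The time of day at which lungs were taken is not given in the sources used here.

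The circadian clock is a feedback loop of transcription that runs in nearly every cell. ARNTL (also called BMAL1) and CLOCK bind E-box sequences and switch on Per, Cry, Nr1d and Dbp genes, and PER and CRY proteins return to the nucleus to inhibit that pair. NR1D1 and NR1D2 (REV-ERB alpha and beta) compete with ROR receptors at elements named RORE and hold down Arntl, whereas DBP and its relatives act on D-box sequences. In lymphocytes several of these factors also have roles outside timekeeping, since RORα and NFIL3 are needed for the development of innate lymphoid cells.

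The libraries held 24796148 to 28782471 estimated counts on genes. Icam1, the targeted gene, was not lower in RNA in the KO-labelled libraries, at 2579 and 2630 counts in WT against 2812 and 3453. In these libraries the genotype therefore rests on the labels. From flow cytometry of lung ILC2s, the paper reports that ICAM-1 deficient mice lack ICAM-1, a protein measure that RNA counts do not give. All 15 listed ILC2 genes were measured, and their summed normalized count was 9296 and 9611 in WT and 7679 and 7793 in the KO-labelled libraries. These genes went both ways, with 2 higher, 6 lower and a median log2 fold change of -0.22 (edgeR). In those same libraries the listed markers of several other lung cells were higher with an adjusted p under 0.05 (edgeR), namely 9 of 9 tested for endothelium, 6 of 9 for T cells and regulatory T cells, 5 of 6 for B cells, 5 of 8 for macrophages and monocytes, 4 of 7 for alveolar and airway epithelium, and 3 of 6 for neutrophils. The summed endothelial level was 162 and 164 in WT against 412 and 435, and the epithelial one 419 and 187 against 535 and 1357. Of fibroblast and smooth muscle markers 0 of 5 passed (edgeR; median log2 fold change 0.90), with sums of 17.5 to 48.3 in WT and 39.2 to 79.7. Of eosinophil markers 3 of 6 were higher and 2 lower, with Epx at 0 counts in both KO-labelled libraries, and of 10 proliferation genes 0 were higher and 2 were lower. In these bulk samples, fewer cells of a type and less RNA per cell cannot be told apart, and the part of these other cells in the clock gene values below was not tested. The sort kept CD45+ cells with ST2 and CD127 and without lineage markers of T cells, B cells and myeloid cells, a gate meant to remove the other cell types listed here.

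Clock genes were low to moderate in all libraries, and 1 of them, Nr1d2, passed the threshold between the groups. A normalized count, the estimated count plus 1 scaled by the authors to a common upper quartile, ranged from 0.84 for Dbp to 59.2 for Cry1. Of the 10 genes, 9 had both KO-labelled libraries above both WT libraries, and Arntl alone overlapped between groups. The same ordering was found for 29.6% of the 18324 genes that the normalized table holds. A test was made for the 8 clock genes that passed the study's limits on low values. Nr1d2 was called higher at an adjusted p under 0.05, 0 were called lower, and 0 reached 2-fold with such a p (edgeR; 3 of the 8 had an unadjusted p under 0.05, and DESeq2 also called Nr1d2 alone). Among all 11711 genes tested, 13.8% were called in either direction, 8.8% higher, 4.97% lower, and 5.47% with a change of at least 2-fold. The share called among the clock genes was 12.5% and thus near that of all genes. Their median log2 fold change was 0.69, beside 0.01 over all genes tested.

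**Figure D1:**
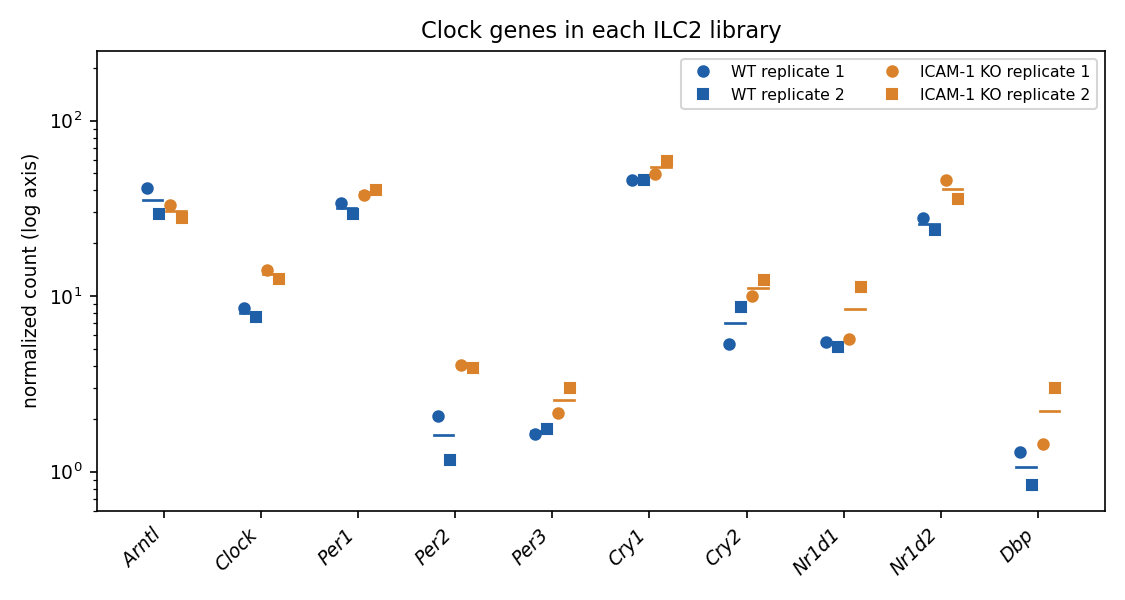
Normalized count of each clock gene (log axis) in the 2 WT libraries (blue) and the 2 KO-labelled libraries (orange). Circles are replicate 1, squares replicate 2 and short lines group means, and Arntl is the only gene whose groups overlap.

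To compare levels between genes, estimated counts were divided by exon length in kilobases and scaled to a library total of 1000000 counts. On this scale Cry1 was the most abundant clock gene in WT, at 15.2 ± 0.145 (SD, n = 2 libraries). It was followed by Per1 at 6.19 ± 0.706, Nr1d2 at 5.26 ± 0.647 and Arntl at 5.19 ± 1.27, neighbours whose library values overlapped. Nr1d1 came next at 1.90 ± 0.106, above Cry2 at 1.22 ± 0.405 and Clock at 0.65 ± 0.0581, with no overlap between neighbours. The lowest levels were those of Dbp at 0.38 ± 0.121, Per2 at 0.30 ± 0.124 and Per3 at 0.19 ± 0.00572, of which Dbp and Per2 overlapped. CLOCK's transcript was thus counted far less per length than that of its partner ARNTL. In the KO-labelled libraries the order differed in 1 place, with Nr1d2 at 8.70 ± 1.56 ahead of Per1 at 7.97 ± 0.223, and these overlapped. The order depends on the length used. With the longest transcript in place of all exons, Arntl rose to second in WT at 9.78, ahead of Per1 at 7.47 and Nr1d2 at 6.10. At the low end in WT, Per2 at 0.302 then lay just under Per3 at 0.306.

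**Figure D2:**
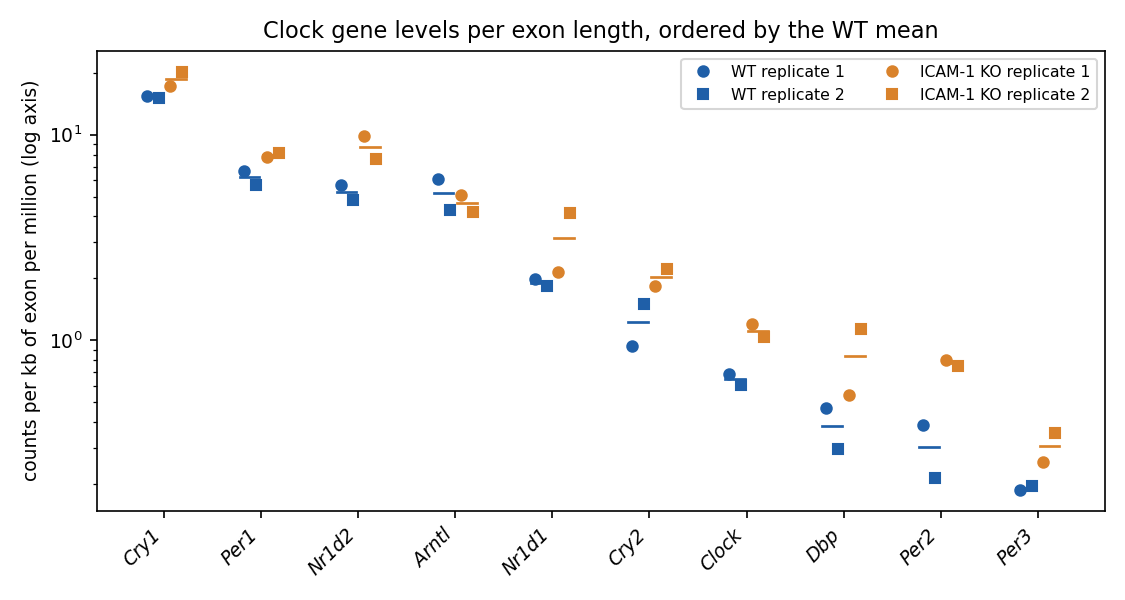
Counts per kilobase of exon at a library total of 1000000 counts (log axis), with genes ordered by their WT mean, in WT (blue) and KO-labelled libraries (orange). Points are libraries and lines are group means, and Cry1 lies above every other clock gene while Per3 lies lowest.

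Arntl encodes the shared partner of CLOCK and NPAS2 and lies on the plus strand of chromosome 7, from 113207465 to 113314126 in mm10. Its normalized count was 41.3 and 29.5 in WT and 33.1 and 27.8 in the KO-labelled libraries. The groups overlapped, the WT libraries lay further apart than the group means, and the log2 fold change was -0.19 (standard error 0.191, edgeR adjusted p = 0.546). Without WT replicate 1 it was 0.071, so no direction can be given. Near the second of the Arntl start sites in RefSeq, the string TAGGTCA, the core of a RORE, was found once on either strand. It begins 30 bases past the start, in an exon, and the stretch is shown because RORE elements are where NR1D and ROR receptors act on this gene (RefSeq, GRCm38.p6, chr7:113207530-113207558, plus strand, match in capitals).
Arntl: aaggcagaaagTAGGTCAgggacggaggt

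Clock lies on chromosome 5 from 76209868 to 76304792 on the minus strand and encodes the DNA-binding partner of ARNTL. Its normalized count was 8.52 and 7.60 in WT and 14.1 and 12.5 in the KO-labelled libraries, from 239 to 406 counts. Both of the latter were well above both WT values, by a log2 fold change of 0.75 (standard error 0.245), but the adjusted p was 0.0745 (edgeR; unadjusted p = 0.0136) and did not pass. The adjusted p stayed above the threshold in every alternative, from 0.0587 to 0.273. Ube2n-ps1 and Gm43658 lie within Clock without sharing exon bases with it. Npas2, the paralog that can stand in for Clock, went the other way. It had 255 and 185 counts in WT and 92 and 40 in the KO-labelled libraries, a log2 fold change of -1.67 (standard error 0.450, edgeR adjusted p = 0.0413). A ratio of Clock to Npas2 within each library, with 1 added to each count, was chosen after the counts were seen and was not tested. This ratio was 1.01 and 1.29 in WT and 4.38 and 9.54 in the KO-labelled libraries. The adjusted p of Npas2 was 0.113 without a filter on low counts, 0.165 without WT replicate 1, 0.0743 without WT replicate 2 and 0.167 without ICAM-1 KO replicate 2.

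Per1, Per2 and Per3 encode the PERIOD repressors, whose transcripts are induced through E-boxes and, for Per1 and Per2, also rapidly by outside signals. Per1 lies on chromosome 11 from 69095217 to 69109960 on the plus strand, and had normalized counts of 33.9 and 29.3 in WT and 37.9 and 40.1 in the KO-labelled libraries. The groups did not overlap, but the difference was small (log2 fold change 0.33, standard error 0.148, edgeR adjusted p = 0.168). Per2, on chromosome 1 from 91415982 to 91459324 on the minus strand, was rare, with 62 and 36 counts in WT and 116 and 121 in the KO-labelled libraries. It had the highest log2 fold change of the 8 clock genes tested, 1.34 with a standard error of 0.452, and still did not pass (edgeR adjusted p = 0.082, 0.0805 to 0.281 over the alternatives). The WT libraries of Per2 differed from each other by 0.83 on the log2 scale, those labelled ICAM-1 KO by 0.06. Per3, on chromosome 4 from 151003652 to 151044665 on the minus strand within a span shared with Camta1, was counted 49 and 54 times in WT against 61 and 93 in the KO-labelled libraries. It lay under the limit on summed normalized counts and was tested under other filters, with a log2 fold change of 0.60 without a filter (standard error 0.425, edgeR adjusted p = 0.483) and 0.61 with edgeR's own filter (adjusted p = 0.466).

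The promoter windows given for these genes, 250 bases before to 50 after each RefSeq start, were searched for 3 kinds of clock element on both strands. These were the E-box CACGTG, the D-box TTATGTAA or TTACGTAA, and the RORE core TAGGTCA. Windows were found for 9 of the 10 clock genes, 13 windows in all since some genes have several starts. An E-box was present in 1 window each of Per1 and Cry1, a D-box in 1 window of Per3 and a RORE core in 1 of Arntl. Of all 32851 windows, counted in the same way, 7.15% held an E-box, 1.06% a D-box and 2.61% a RORE core. Per1, Cry1 and Per3 are shown because they carry the elements of the loop in the window itself. In Per1 the E-box begins at -166 from a start site at position 69098949, in an intron of the longer gene model (chr11:69098753-69098818, plus strand). In Cry1 it begins at -60 from the start (chr10:85185079-85185144, minus strand). In Per3 there are 2 D-boxes, which begin at -205 and -158 from the start, 47 bases apart (chr4:151044786-151044900, minus strand). All 3 are from RefSeq on GRCm38.p6, with the element in capitals.
Per1: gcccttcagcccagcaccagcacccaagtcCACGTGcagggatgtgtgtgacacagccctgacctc
Cry1: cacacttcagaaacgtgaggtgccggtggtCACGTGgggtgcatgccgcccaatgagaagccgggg
Per3: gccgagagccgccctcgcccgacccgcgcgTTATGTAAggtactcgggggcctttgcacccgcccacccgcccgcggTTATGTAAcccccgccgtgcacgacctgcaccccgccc

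Cry1 and Cry2 encode the cryptochromes, which with PER proteins block CLOCK and ARNTL. Cry1 lies on chromosome 10 from 85131700 to 85185064 on the minus strand. Its WT libraries were nearly equal at 46.1 and 46.1 normalized counts, and the KO-labelled libraries were at 49.6 and 59.2, so that the difference was carried mostly by replicate 2 (log2 fold change 0.27, standard error 0.135, edgeR adjusted p = 0.221, with 0.12 on the log2 scale without that library). Cry2, on chromosome 2 from 92403646 to 92434043 on the minus strand, was at 5.35 and 8.72 in WT and 10.0 and 12.3 in the KO-labelled libraries (log2 fold change 0.69, standard error 0.307, edgeR adjusted p = 0.166). An RNA on the other strand, D930015M05Rik, shares 295 exon bases with Cry2 and had 6.97 to 11.6 counts, beside 161 to 385 for Cry2. Some reads were split between them, so part of the Cry2 count is an estimated share.

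Of the clock genes tested, Nr1d2 alone was called higher (edgeR). Its log2 fold change was not the largest, since Clock, Nr1d1, Cry2 and Per2 had values as large or larger. Nr1d2 encodes REV-ERB beta, a repressor of Arntl, and lies on chromosome 14 from 18204054 to 18239127 on the minus strand. Its counts were 843 and 748 for WT, against 1315 and 1129 for the KO-labelled libraries. After normalization WT averaged 25.8 ± 2.93 (SD, n = 2 libraries) and the KO-labelled libraries 40.8 ± 6.84, a log2 fold change of 0.69 (standard error 0.171, edgeR adjusted p = 0.0317). The groups did not overlap, and the change was less than 2-fold. Its adjusted p was 0.0518 with edgeR's own filter, 0.118 without a filter on low counts, 0.0658 without WT replicate 1, 0.132 without WT replicate 2 and 0.152 without ICAM-1 KO replicate 1, while without ICAM-1 KO replicate 2 it was 0.00966.

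Nr1d1, for REV-ERB alpha, had nearly the same log2 fold change with a far wider spread. It lies on chromosome 11 from 98767932 to 98775333 on the minus strand, and its normalized count was 5.50 and 5.15 in WT and 5.72 and 11.2 in the KO-labelled libraries. Only replicate 2 was clearly above WT, and the log2 fold change was 0.71 (standard error 0.377, edgeR adjusted p = 0.240). Without ICAM-1 KO replicate 2 it was 0.12. The 2 KO-labelled libraries differed by 0.97 on the log2 scale for Nr1d1, beside a median of 0.17 and a 90th percentile of 0.55 over all genes tested. Thra, a thyroid hormone receptor gene on the other strand, shares 263 exon bases with the end of Nr1d1. Thra had 263 and 146 counts in WT and 138 and 202 in the KO-labelled libraries. Some reads were split between these genes, so part of the Nr1d1 count is an estimated share.

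Dbp encodes a PAR bZIP factor whose transcript is among the most strongly cycling outputs of the clock in many tissues. It lies on chromosome 7 from 45705088 to 45710203 on the plus strand and was the least counted clock gene, with 38.1 and 25.6 estimated counts in WT and 40.3 and 93.6 in the KO-labelled libraries. As with Nr1d1, the high value was that of ICAM-1 KO replicate 2, and the other library lay just above WT. Dbp was under the limit on summed normalized counts. Without a filter its log2 fold change was 1.08 (standard error 0.596, edgeR adjusted p = 0.373). Sphk2, on the other strand, shares 539 exon bases with Dbp and had 639 and 465 counts in WT and 562 and 427 in the KO-labelled libraries, so it was lower in both replicates numbered 2. ICAM-1 KO replicate 2 also had the highest summed level of the epithelial, macrophage, B cell, T cell and endothelial markers, cells that the sorting gate was meant to remove. The neutrophil sum was highest in ICAM-1 KO replicate 1, at 166 against 126 in replicate 2, and the eosinophil sum in WT replicate 1, at 120. The part of these cells in the values of Dbp and Nr1d1 was not tested.

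The rest of the pathway was taken from a list of 33 other clock genes, of which 27 were tested. Npas2, Hlf, Nfil3, Bhlhe40, Tipin and Rack1 fell, Cipc rose, and 20 did not pass (edgeR). These 7 called genes are 25.9% of those tested, against 13.8% of all genes tested, and the median log2 fold change of the list was -0.03. Of the 30 genes on the list in the normalized table, 12 had both KO-labelled libraries below both WT libraries, which was so for 24.3% of all genes in that table. Another 7 had both above, which was so for 29.6% of all genes in that table. Npas2 was the only one of the 7 to change by at least 2-fold.

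Among the relatives of Dbp, Hlf was by far the most abundant and it fell. Hlf, another PAR bZIP factor, had normalized counts of 118 and 135 in WT and 86.6 and 77.6 in the KO-labelled libraries (log2 fold change -0.59, standard error 0.111, edgeR adjusted p = 0.0109). Tef, the remaining member of that family, was at 13.8 and 12.8 in WT and 13.9 and 14.6 in the KO-labelled libraries, and did not pass (log2 fold change 0.13, standard error 0.214, edgeR adjusted p = 0.741). Nfil3, which binds the same D-boxes as a repressor, fell from 235 and 271 to 188 and 200 (log2 fold change -0.36, edgeR adjusted p = 0.0473). The windows of Nfil3 and Arntl were the ones among the tested clock genes with a RORE core. In Nfil3 it lies on the other strand and begins at -12 from the RefSeq start, within an exon of the GENCODE model (GRCm38.p6, chr13:52981040-52981062, minus strand, in capitals).
Nfil3: gcgctcggaacTGACCTActaac

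Rora, whose product acts at RORE elements, was abundant and nearly equal in all libraries, at 595 and 609 normalized counts in WT and 576 and 672 in the KO-labelled libraries (log2 fold change 0.08, standard error 0.0972, edgeR adjusted p = 0.631). Without ICAM-1 KO replicate 2 its log2 fold change was -0.049.

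The E-box repressors went in different directions. Bhlhe40, which encodes DEC1, was the most abundant gene of the pathway at 2010 and 1934 normalized counts in WT, and fell to 1442 and 1527 (log2 fold change -0.38, standard error 0.0845, edgeR adjusted p = 0.0202). Cipc, an inhibitor that binds CLOCK, rose from 22.5 and 18.3 to 29.2 and 37.6 (log2 fold change 0.74, standard error 0.195, edgeR adjusted p = 0.0375). Ciart, which encodes the repressor CHRONO, had 25 and 50 counts in WT and 56 and 70.9 in the KO-labelled libraries. It lay under the limit on summed normalized counts, and its log2 fold change was 0.78 without a filter (edgeR adjusted p = 0.439) and 0.79 with edgeR's own filter (adjusted p = 0.402). Its window held 3 E-boxes, more than that of any clock gene above, the first of them at -116 from the start (RefSeq, GRCm38.p6, chr3:95882237-95882374, minus strand, E-boxes in capitals).
Ciart: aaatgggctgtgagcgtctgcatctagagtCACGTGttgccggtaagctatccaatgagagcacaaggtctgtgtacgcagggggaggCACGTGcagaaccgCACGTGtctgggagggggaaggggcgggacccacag

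Tipin, a partner of TIMELESS at the replication fork, fell from 188 and 203 to 120 and 132 normalized counts (log2 fold change -0.60, standard error 0.0984, edgeR adjusted p = 0.00661), while Timeless itself did not pass (log2 fold change -0.19, edgeR adjusted p = 0.370). Rack1, a ribosome-bound scaffold protein also found with clock proteins, fell from 667 and 702 to 503 and 511 (log2 fold change -0.41, standard error 0.0805, edgeR adjusted p = 0.0138). Of the 7 calls, that of Tipin alone held with each library left out in turn. Without WT replicate 1 the edgeR adjusted p was 0.056 for Nfil3, 0.125 for Bhlhe40, 0.0694 for Cipc and 0.0526 for Rack1. Without WT replicate 2 it was 0.0633 for Hlf, 0.215 for Nfil3, 0.0884 for Bhlhe40, 0.157 for Cipc and 0.0805 for Rack1. Without ICAM-1 KO replicate 1 it was 0.164 for Nfil3 and 0.101 for Bhlhe40, and without ICAM-1 KO replicate 2 it was 0.185 for Cipc. Without a filter on low counts it was 0.0502 for Hlf, 0.0973 for Nfil3 and 0.127 for Cipc, with edgeR's own filter 0.0584 for Npas2, 0.0512 for Nfil3 and 0.0559 for Cipc, and with the older edgeR test 0.0687 for Npas2 and 0.0617 for Nfil3.

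**Figure D3:**
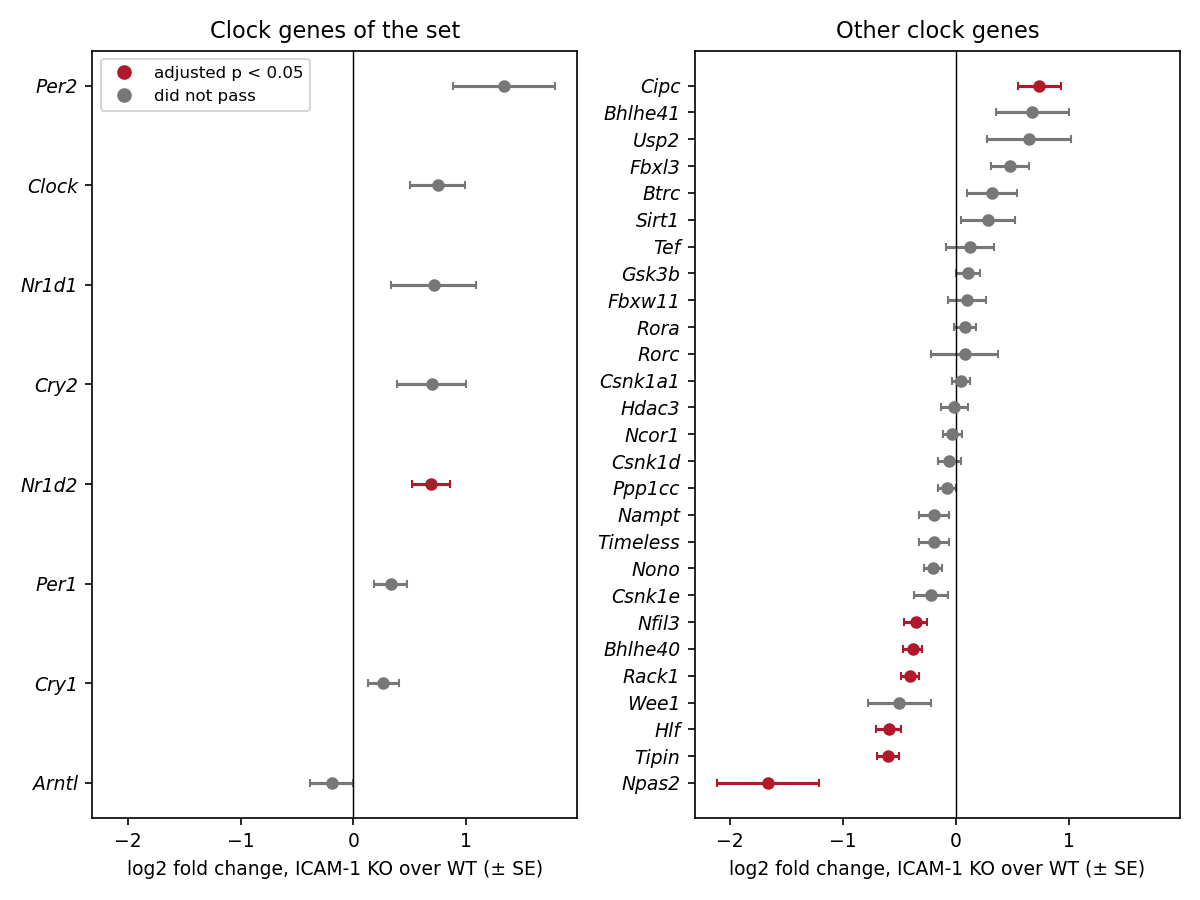
Log2 fold change (KO-labelled libraries over WT, bars are standard errors) of the 8 clock genes tested (left) and of 27 other genes of the pathway (right), with genes at an adjusted p under 0.05 in red. Nr1d2 is the red point on the left, and on the right Cipc is positive and 6 genes from Nfil3 to Npas2 are negative.

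Ratios of counts within a library do not depend on how libraries are scaled. Each of 6 clock genes was set against Arntl, since Per, Nr1d1 and Dbp transcripts peak apart from Arntl in a running clock. Cry1 was set against it as well. For every ratio, 1 was added to each count first. The log2 ratio of Per2 to Arntl was -4.31 and -4.65 in WT and -3.03 and -2.84 in the KO-labelled libraries, a difference of 1.55. That of Per1 was -0.28 and -0.01 in WT and 0.20 and 0.53 in the KO-labelled libraries, a difference of 0.51. Dbp differed by 1.20, at -5.00 and -5.13 against -4.53 and -3.21, and Per3 by 0.78, at -4.64 and -4.08 against -3.94 and -3.22. These 4 ratios did not overlap between groups. Those of Nr1d1 (-2.91 and -2.52 against -2.53 and -1.31) and Cry1 (0.16 and 0.65 against 0.58 and 1.09) did overlap. With 2 libraries against 2 the exact permutation test, two-sided, cannot give a p below 0.333, which was the p of the 4 ratios without overlap, and it was 0.667 for Nr1d1 and Cry1. The 6 ratios share their denominator and are not independent. ICAM-1 KO replicate 2 had the highest value in all 6.

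**Figure D4:**
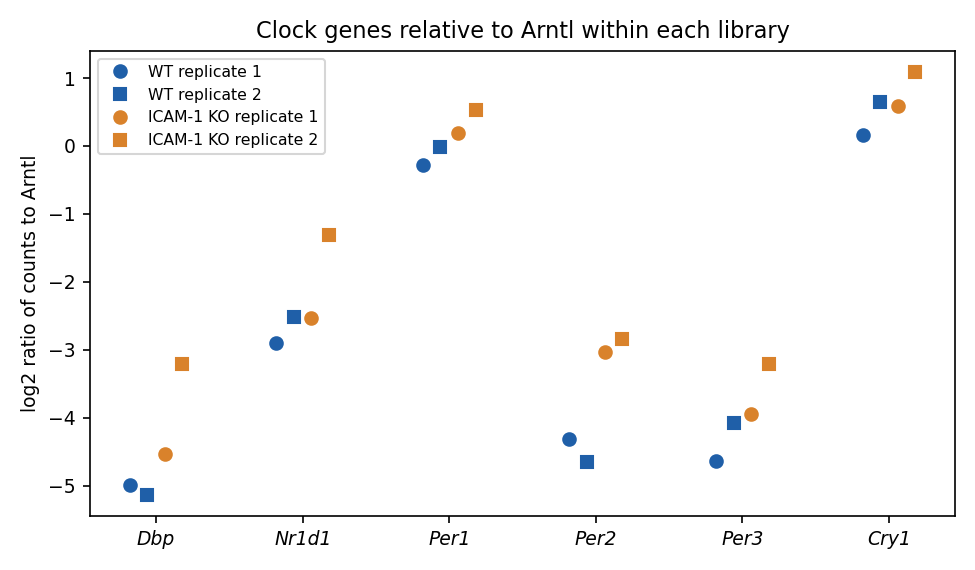
Log2 ratio of the counts of 6 clock genes to the counts of Arntl in each library, WT in blue and KO-labelled libraries in orange. Replicate 2 of the latter (orange squares) is highest for every gene, and the groups are separate for Dbp, Per1, Per2 and Per3.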

How the data were processed

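Sorted lung ILC2s were profiled in 2 WT and 2 ICAM-1 KO libraries, grouped by sample title. The authors used STAR, the mm10 index and GENCODE M20 for alignment (the submitters' processing notes name STAR 3.5.3, whereas the paper names another version) and deposited expected counts per gene from the E/M method of Partek, in which reads that fit several genes are split. A second deposited table holds a normalized signal, equal to the count plus 1 times a factor per library, which gives equal upper quartiles. Whether counting used strand is not stated, so genes that overlap on opposite strands can share reads. For Nr1d1 with Thra, and for Cry2 with D930015M05Rik, fractional counts added up to whole numbers in each library. Some reads were therefore split between the opposite strands in these pairs.

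Counts were rounded and tested with edgeR 4.0.16 (quasi-likelihood, upper quartile factors, no covariate) in R 4.3.3 over the 11711 genes that kept to the study's limits (normalized counts averaging 1 or more and summing to 10 or more), with Benjamini-Hochberg adjustment over all of them. Tests were tried on simulated data. The GSA test that the study used is part of Partek and was not run. Libraries are described as separate pools, so p-values measure the spread between pools. Deposited gene ends were moved by 1 base to match GENCODE M21, which gave exon lengths. Alternatives were TMM factors, DESeq2 1.42.0, other filters, the older edgeR test, limma 3.58.1, counts not rounded, each library left out and a replicate block. Named were all members, Icam1, overlapping genes, other clock genes past the threshold and Npas2, Rora, Nfil3, Tef, Bhlhe40 and Ciart, and Timeless was named after its value was seen. Members and lists were chosen with earlier results of these data known.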

Additional observations from a re-analysis of the deposited data

How the results depend on the processing

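Of the 10 clock genes, 1 was called higher (edgeR). With no filter on low counts, and likewise under filterByExpr, 0 were called, and the count was 0 to 1 with each library left out, where the group left with 1 library is assumed to vary like the other. For the other clock genes, 1 higher and 6 lower, the counts were 0 and 3 without a filter, 0 higher with edgeR's own filter, and 0 to 2 higher and 1 to 5 lower with each library left out. No clock gene of the 10 was called lower in any alternative. With each library left out, the log2 fold change of Arntl ran from -0.41 to 0.071, positive without WT replicate 1, and that of Rora from -0.049 to 0.20, negative without ICAM-1 KO replicate 2. Over all genes 1612 were called, against 525 without a filter and 681 to 1305 with a library left out. With the replicate block, 1 clock gene was called higher and 1715 genes in all, and the deviations of same-numbered libraries correlated at -0.058, so the numbers were not taken as pairs. Differences in the log2 ratio to Arntl kept their sign with each library left out, at 0.54 to 1.86 for Dbp, 0.18 to 1.40 for Nr1d1, 0.34 to 0.67 for Per1, 1.38 to 1.72 for Per2, 0.42 to 1.15 for Per3 and 0.18 to 0.69 for Cry1. The cause of these changes was not tested beyond the fewer libraries or other genes that each alternative holds. Levels per length moved by more than 1 SD in 15 of 20 cases with the longest transcript. Dbp, Per3 and Per2, with the fewest counts, are the least precisely measured.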
